A study of Mus musculus with 7 samples.

Results

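Transcription factors that pattern the embryo outside the Hox clusters were examined at their promoters in adult blood progenitors. The 58 genes, of 21938 protein-coding genes, were listed by name from 12 families: SOX, PAX, LIM homeodomain, NKX, forkhead, GATA, T-box, sine oculis homeobox, Iroquois, DLX, the EMX, OTX and EN genes, and neural bHLH genes. Open chromatin was read out by ATAC-Seq, an assay that uses a transposase to insert sequencing adapters where DNA is accessible. The cells were LSK cells (Lin-Sca-1+c-Kit+), the stem and early progenitor fraction of the bone marrow. The 4 WTAkita libraries came from wild-type offspring of hyperglycemic dams heterozygous for the Ins2 Akita mutation, which misfolds insulin, and the 3 Ctrl libraries came from offspring of normal pregnancies. All offspring were adults of the C57/BL6 strain, 8 to 12 weeks old in the study's account of its model. The offspring did not carry the mutation, and high-fat diet before breeding was given to the Akita dams and to their wild-type littermate females alike. Each library was made from 50000 sorted cells. How many mice went into a library is not stated in the labels or methods read here, and p-values therefore cover the spread among these libraries, which may be technical.

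Developmental transcription factors of this kind are switched on in restricted embryonic territories, such as the neural tube, the somites or the heart field, and most are not part of the blood program. Their promoters usually lie in CpG islands. In cells that do not use them, such islands are typically held by Polycomb complexes, which keep the gene silent while leaving the DNA unmethylated. An ATAC-Seq peak at such a start site reports access of the transposase to the DNA and not transcription of the gene.

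Each library had its own peak list, with 137963 to 151552 peaks per library after lines with the same start and end were counted once. The estimated number of tags was 40500000 to 53100000 in WTAkita and 37600000 to 51900000 in Ctrl. A promoter peak was a peak with any base within 1000 bp of an annotated start site, and a gene took the value of its highest one. Height was the fold enrichment of the summit over its local background in that library, a value without scaling from one library to another. It was therefore also given as a percentile among all promoter peaks of that library. Since a gene takes its highest peak, the median of all genes with a peak in all 7 libraries was at percentile 72.0 and not at 50. The label was checked against marker genes. All 10 LSK marker genes, among them Kit, Ly6a, Cd34 and Flt3, had promoter peaks in all 7 libraries, at a median percentile of 62.2. Among 10 markers of mature lineages, 6 had a peak in every library, 2 in some and 2, Cd8a and Ms4a1, in none. Of 12 markers of cells outside blood, 8 had a peak in all 7 libraries, at a median percentile of 57.9, and Alb, Ins1, Krt5 and Neurod6 had none, so the presence of a peak did not by itself mark blood genes.

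The sequences upstream of a start site in 4 members are given as examples. By the measure of CpG content used further on, 3 of these genes were CpG-rich and Foxa2 was not. That measure was taken around the main annotated start site of the gene and not on the printed bases. At Foxa2 its window does not hold the printed bases, and at Sox2 it holds only a part of them. The Foxa2 bases come before its RefSeq start but lie downstream of its main annotated start, and its median summit was in an intron. The sequences are the 250 bases before the RefSeq start (GRCm38.p6, the assembly of mm10). They are printed 5′ to 3′ on the strand of the gene with every CG in capitals. These are the members whose summits lay inside the RefSeq promoter window in all 7 libraries and whose upstream stretch holds at most 30 annotated UTR bases. RefSeq promoters were found for 39 of the 58 members. Irx4 lies at chr13:73260247-73260496 on the plus strand, Foxc1 at chr13:31806396-31806645 on the plus strand, Sox2 at chr3:34649745-34649994 on the plus strand and Foxa2 at chr2:148045949-148046198 on the minus strand.
Irx4: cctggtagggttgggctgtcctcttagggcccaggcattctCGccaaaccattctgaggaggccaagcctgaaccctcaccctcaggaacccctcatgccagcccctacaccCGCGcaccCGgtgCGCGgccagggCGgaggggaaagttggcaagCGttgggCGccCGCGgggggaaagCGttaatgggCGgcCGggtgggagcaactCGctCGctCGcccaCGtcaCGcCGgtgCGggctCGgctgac
Foxc1: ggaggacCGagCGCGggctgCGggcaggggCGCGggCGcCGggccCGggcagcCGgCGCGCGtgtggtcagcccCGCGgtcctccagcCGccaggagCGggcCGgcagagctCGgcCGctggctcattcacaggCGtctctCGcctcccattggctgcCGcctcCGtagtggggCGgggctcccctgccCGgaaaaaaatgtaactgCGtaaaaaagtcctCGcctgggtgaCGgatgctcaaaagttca
Sox2: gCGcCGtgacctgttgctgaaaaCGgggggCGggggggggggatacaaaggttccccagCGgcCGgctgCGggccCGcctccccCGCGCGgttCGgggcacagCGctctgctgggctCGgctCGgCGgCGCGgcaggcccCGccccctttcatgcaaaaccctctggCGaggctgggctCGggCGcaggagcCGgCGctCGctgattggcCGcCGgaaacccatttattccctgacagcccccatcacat
Foxa2: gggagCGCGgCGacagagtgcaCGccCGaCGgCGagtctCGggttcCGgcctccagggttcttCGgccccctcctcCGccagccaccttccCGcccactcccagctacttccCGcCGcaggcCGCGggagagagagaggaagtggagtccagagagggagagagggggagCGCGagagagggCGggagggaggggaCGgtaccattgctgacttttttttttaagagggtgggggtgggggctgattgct
They hold 22, 29, 27 and 20 CG dinucleotides, where the median over 15480 RefSeq promoters of genes with a peak in all libraries was 14. The mean percentiles of these genes were 21.0, 27.6, 40.1 and 45.1, all under the median of all genes. Summits lay in the RefSeq window in all libraries at 8 members, and the UTR limit left out Neurod1, Sox1, Six6 and Lhx3. Their stretches hold 22, 29, 17 and 11 CG dinucleotides, and their mean percentiles were 28.5, 48.5, 60.2 and 88.3. The printed sequences thus do not stand for all members.

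Almost every member had a promoter peak, and nearly all of these peaks were low. Of the 58 genes, 56 had a promoter peak in all 7 libraries, a share of 96.6%, where the share over all protein-coding genes was 72.1% and over CpG-rich promoters 98.8%. A promoter was called CpG-rich when the 1001 bases around its main start site held at least 50% GC and a CpG observed over expected ratio of at least 0.6. By this measure 43 of the 58 members were CpG-rich, and 41 of these, or 95.4%, had a peak in all libraries. All 15 members that were not CpG-rich had one as well, where 51.0% of all promoters outside the CpG-rich class did. The class describes the main start site, and the peak could lie at another one, as at Gata4, Tbx15 and Lhx4. A peak at such a member thus need not be access at a CpG-poor start site. The median percentile of the 56 members was 32.5, with quartiles at 25.6 and 45.5, against 72.0 for all genes and 74.3 for CpG-rich genes. The median fold enrichment was 5.44 for the members and 14.5 for all genes, and the median summit pileup 60.9 and 238.1 tags. As a description, 13 of the 56 members, or 23.2%, lay under the 25th percentile, where 2.65% of all genes did. Only 11 of the 56 lay above the 50th percentile, against 81.1% of all genes, and 3 members, Lhx3, Tbx3 and Neurog2, were above the median of all genes.

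**Figure D1:**
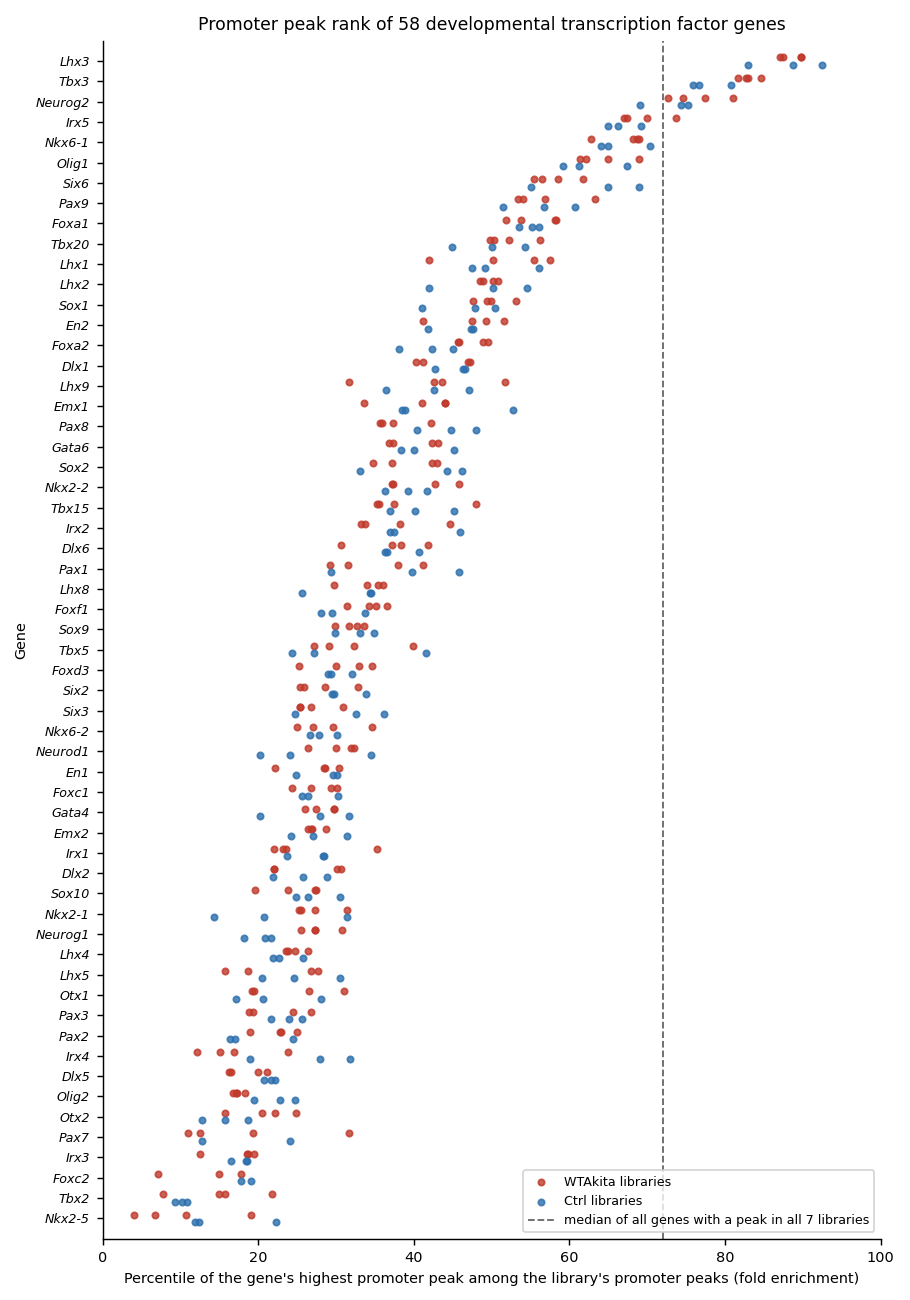
Percentile of the highest promoter peak of each of the 58 genes among all promoter peaks of the same library (x axis), with 1 point per library, WTAkita in red above Ctrl in blue, and genes ordered by their mean. The dashed line is the median of all genes with a peak in all 7 libraries, at 72.0, and the means of 3 genes lie to its right.

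The low rank was seen in every library. The median percentile of members with a peak was 32.0, 32.3, 33.3 and 31.0 in WTAkita replicates 1 to 4, against 33.8, 34.1 and 29.7 in Ctrl replicates 1 to 3. The group means were 32.2 ± 0.96 in WTAkita (SD, n = 4) and 32.5 ± 2.49 in Ctrl (SD, n = 3), and the ranges overlapped. The median width of the highest peak was 617.1 ± 51.2 bp in WTAkita (SD, n = 4) and 675.5 ± 42.7 bp in Ctrl (SD, n = 3), where all genes had medians of 953.3 bp and 970.3 bp. With the widths of all promoter peaks of a gene summed, the medians were 1193 bp in WTAkita and 1273 bp in Ctrl, and the mean over the 7 libraries was 1227 bp for members and 1263 bp for all genes. The smaller width of the members thus held for the highest peak and nearly closed for the sum. Over the members, the percentiles of any pair of libraries had a Spearman rho of 0.860 to 0.931, a description over genes that share their base composition, so the order of the members was similar from library to library.

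Other gene lists were placed on the same scale. Further developmental transcription factors outside the Hox clusters, 116 genes, had a peak in all libraries at 102. Among these 102 the median percentile was 40.6, with Tlx3 at 5.88 and Foxl1 at 6.97 as the lowest and Neurod4 at 86.1 among the highest. The 39 clustered Hox genes had 35 with a peak in all libraries and a median of 37.4. Both lists thus sat near the members. Transcription factors of blood had peaks in all libraries at 40 of 40 genes and a median of 55.1, also under the 72.0 of all genes. Among them were Runx3 at 92.5 and Irf8 at 91.7, but also Cebpb at 31.0 and Bcl11a at 29.3, within the range of the members. A rank under the median of all genes was thus not particular to genes outside the blood program. Genes of the Polycomb and trithorax complexes, most of which every cell uses, had 36 of 37 and a median of 68.0. These lists differ in size and base composition, and no test was made between them.

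**Figure D2:**
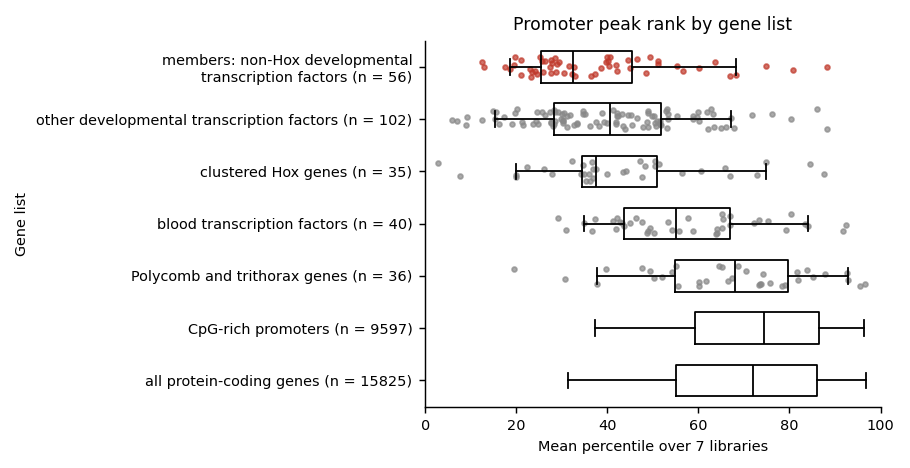
Mean percentile over the 7 libraries of the highest promoter peak (x axis) by gene list (y axis), for genes with a peak in all libraries; boxes show quartiles and median, whiskers the 5th and 95th percentiles, and points single genes for lists under 200 genes. The median of the members is 32.5, of the blood transcription factors 55.1 and of all genes 72.0.

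Rank and CpG content at the main start site showed little relation within the members. The highest peak could lie at another start site of the same gene, as at Gata4, Tbx15 and Lhx2. Rank and CpG content thus did not always concern the same stretch of DNA. The 41 CpG-rich members with a peak in all libraries had a median percentile of 30.5, and the 15 others, including Lhx3, Pax8 and Sox10, had 39.8. Over all genes the order was the other way, 74.3 for CpG-rich promoters and 67.5 for the rest. Spearman's rho between percentile and the CpG ratio was 0.004 over the 58 members and 0.107 over all genes, each a description over genes, which are not independent replicates.

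**Figure D3:**
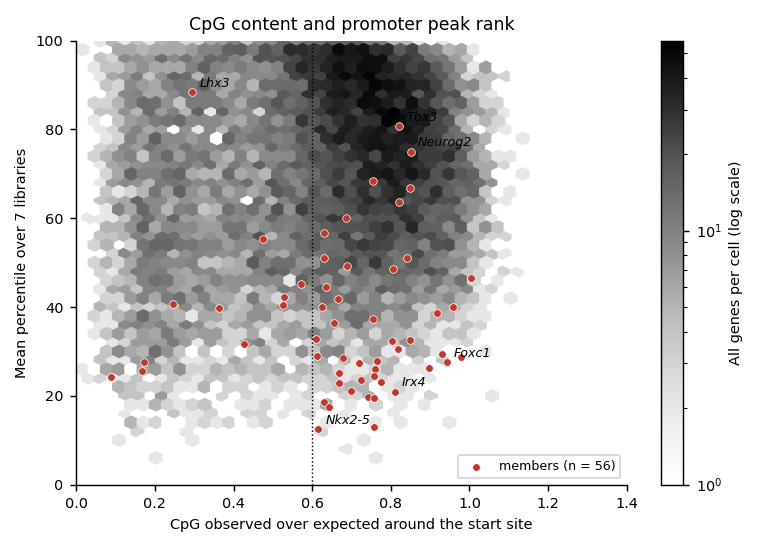
CpG observed over expected ratio in the 1001 bases around the main start site (x axis) against the mean percentile over 7 libraries (y axis). The percentile is that of the highest peak, which could lie at another start site of the gene. All genes are grey cells shaded by number on a log scale, and the 56 members are red points. Lhx3 has the highest percentile, 88.3, with a ratio of 0.295, while Foxc1, with a ratio of 0.942, lies at 27.6; the dotted line marks the ratio of 0.6 used to call a promoter CpG-rich.

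The highest member was Lhx3, a LIM homeodomain factor of pituitary and motor neuron development. Its promoter peak lay at percentile 87.1, 89.8, 87.5 and 89.8 in WTAkita and at 88.8, 92.5 and 83.0 in Ctrl. All 7 libraries thus placed it well above the median of all genes, and the groups overlapped. Its summit was 32 bp downstream of a start site, in the UTR, and stayed within 11 bp across the libraries. Tbx3, a T-box factor of limb and heart development, came next, at percentile 84.7, 83.0, 81.7 and 82.8 in WTAkita and 75.9, 80.7 and 76.7 in Ctrl. Every WTAkita library was above every Ctrl library. The peak also covers a start site of the antisense gene Tbx3os1. Neurog2, a proneural bHLH factor, was at 74.6, 72.7, 81.0 and 77.5 in WTAkita and 75.3, 74.4 and 69.1 in Ctrl. Its summit lay in the coding exon, 1085 bp downstream of the start site, so the peak counted by its edge.

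Irx5, an Iroquois factor of heart and retina, was at 73.7, 67.4, 69.9 and 67.0 in WTAkita and 69.2, 65.0 and 66.3 in Ctrl. Its summit lay at -1433 bp from the start site, counted upstream as negative, and the same peak covers a start site of the noncoding gene Crnde. The neural tube and pancreatic factor Nkx6-1 was at 68.2, 69.0, 62.8 and 68.7 in WTAkita and 70.4, 64.1 and 64.9 in Ctrl. The oligodendrocyte factor Olig1 was at 69.0, 61.4, 62.1 and 65.0 in WTAkita and 61.3, 59.2 and 67.4 in Ctrl. These 3 genes overlapped between the groups. Height and tag number did not run together among them: the summit pileup of Olig1 was 88 to 99 tags in WTAkita and 84 to 106 in Ctrl, while that of Irx5 was 316 to 409 in WTAkita and 344 to 430 in Ctrl.

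The lowest member with a peak in all libraries was Nkx2-5, a factor of the heart field. It was at percentile 6.73, 10.8, 4.08 and 19.1 in WTAkita and 12.4, 11.8 and 22.3 in Ctrl, with 15 to 21 tags at the summit in WTAkita and 17 to 23 in Ctrl. The values spread widely within each group. Tbx2, which acts in heart and limb, was at 21.8, 15.8, 7.71 and 15.0 in WTAkita and 10.9, 10.2 and 9.36 in Ctrl. Irx3 was at 12.5, 19.5, 18.7 and 18.6 in WTAkita and 18.5, 16.5 and 18.4 in Ctrl. Otx2, needed for the forebrain, was at 20.5, 22.1, 24.9 and 15.8 in WTAkita and 12.8, 18.7 and 15.7 in Ctrl. The groups overlapped at all of these genes. The summit of the highest peak moved among the libraries by 3435 bp at Nkx2-5, 532 bp at Irx3 and 9500 bp at Otx2. At Nkx2-5 the highest peak of WTAkita replicate 3 lay apart from that of the other libraries. The percentiles of Nkx2-5, Irx3 and Otx2 thus need not all come from the same site. Olig2, the motor neuron and oligodendrocyte factor and the genomic neighbor of Olig1, was at 17.1, 18.3, 16.7 and 17.3 in WTAkita and 24.8, 19.5 and 22.8 in Ctrl, with every WTAkita library lower. Dlx5, a factor of bone and face, was at 16.5, 19.95, 16.3 and 21.1 in WTAkita and 22.1, 21.7 and 20.7 in Ctrl. Olig1 and Olig2 therefore sat near opposite ends of the list.

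A promoter peak was missing from at least 1 library at 2 members, Foxc2 and Pax7, which were named after their values were seen. Foxc2, a forkhead factor of lymphatic vessels and somites, had none in WTAkita replicate 4 and Ctrl replicate 3. Where called, it was at percentile 17.8, 7.08 and 15.0 in WTAkita and 19.1 and 17.8 in Ctrl. Pax7, which marks muscle stem cells, had none in Ctrl replicate 1 and was at 11.0, 31.7, 19.3 and 12.5 in WTAkita and 12.8 and 24.1 in Ctrl. Neither gene split by group. Over all genes, 0.0228% had a peak in every WTAkita and no Ctrl library and 0.00912% the reverse.

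By family, the median percentile was lowest for the Iroquois genes, at 26.4, and highest for the LIM homeodomain genes, at 42.2. Families spread widely within themselves. T-box genes ran from Tbx2 at 13.0 to Tbx3 at 80.8, LIM homeodomain genes from Lhx5 at 23.5 to Lhx3 at 88.3, and the Iroquois genes from Irx3 at 17.5 to Irx5 at 68.4. The SOX genes were closer together, from Sox10, a neural crest factor, at 25.7 to Sox1, a neural progenitor factor, at 48.5. Of the 2 GATA factors among the members, Gata6 was at 40.4 and Gata4, the heart and endoderm factor, at 27.6.

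The positions of the member summits were also described, with no test against other genes. The median distance from a start site was 272.5 bp, against 86 bp over all genes, and 18 of the 58 members had a median summit more than 500 bp away. At the median summit the annotation was upstream sequence for 17 members, a coding exon for 15, a UTR for 14, an intron for 9 and another exon for 3. The summit of the highest peak stayed within 50 bp over the 7 libraries at 51.8% of the 56 members and at 74.4% of all genes. It moved by more than 500 bp at 30.4% of members and 10.5% of all genes. Another gene also had a start site at the highest peak of 19 members, mostly antisense or noncoding genes such as Fendrr at Foxf1 and Emx2os at Emx2. Without strand information in the peaks, access at such a start site and at the member cannot be told apart. No 2 members shared a peak.

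Short motifs were searched on both strands within 150 bp of the median summit of the 56 members, and the share of all 15825 genes with the motif in a window of the same 301 bases is given beside each. A core of the motif of CTCF, the insulator protein, was found at 4 members, or 7.14%, against 7.87% of all genes. The RE1 element, bound by REST, which represses neuronal genes, was found at 1 member, Lhx3, where 0.303% of all genes had it. The 5 matches are shown in 30 bases each, with the motif in capitals, because Lhx3, Tbx3 and Neurog2, the 3 highest members, are among them. Positions are on GRCm38.p6: Lhx3 at chr2:26208269-26208298 on the minus strand, Tbx3 at chr5:119670721-119670750 on the minus strand, Neurog2 at chr3:127634256-127634285, Pax1 at chr2:147362505-147362534 and Otx1 at chr11:22001669-22001698, these on the plus strand.
Lhx3: gcctccttCAGCACCGCGGACAGcgccagc
Tbx3: ccaaagtcgCCTCTAGGTGGCtgatccaga
Neurog2: cgccggtggCCTCCAGGGGGCgctcttcac
Pax1: ggaccggacCCGACAGGGGGCgacaaactg
Otx1: gctcggcctCCAATAGGGGGCctagagcgg
The match at Otx1 overlaps a CCAAT box. Pax1 and Otx1 carried the same core at percentiles 36.4 and 23.2, so the match did not go with a high rank at every member. Motifs common at widely used promoters, 4 in all, had no match at any of the 56 members. The ETS motif CCGGAAGT was in 6.36% of all genes, the NRF1 motif GCATGCGC in 3.88%, the cyclic AMP response element TGACGTCA in 2.76% and a YY1 motif in 1.34%. No match says only that these letters were not in the window. The SP and KLF box GGGCGG was at 38 members, or 67.9%, against 61.6% of all genes, and CCAAT at 18 members, or 32.1%, against 35.6%. The RUNX motif TGTGGT was at 5 members, or 8.93%, against 14.7% of all genes, and the E-box CAGCTG at 8, or 14.3%, against 17.5%. The GATA motif AGATAA was at 4 members, or 7.14%, against 4.8%, and the homeodomain motif TAATTA at 1, or 1.79%, against 1.51%. A match describes letters in the sequence and was not tested as a binding site.

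Comparing WTAkita with Ctrl, the study's question of whether a diabetic pregnancy leaves a mark on the chromatin of the offspring's progenitors was put to the member promoters. The study compared read counts at accessible sites across the genome. It reported reduced accessibility in offspring of diabetic pregnancies and called these analyses limited in scope. The values here are the highest peak per gene, at an adjusted threshold, so the counts below do not test that report. None of the 56 members tested passed an adjusted p of 0.05 in limma with Benjamini-Hochberg adjustment over all 15825 genes, the smallest member value being 0.9986, and 0.00632% of all genes passed in each direction, 0.0126% in both together. At an unadjusted p under 0.05 there were 3 members higher and 2 lower in WTAkita, where 1.81% of all genes were higher and 2.13% lower, 3.94% in all. The exact permutation test over the 35 splits, whose smallest two-sided p is 0.0286, could not call a gene after adjustment unless most genes reached that p. Unadjusted, 2.28% of all genes and 3 members reached p under 0.05 in it. The difference was above 0 at 31 members and below 0 at 25, where 53.3% of all genes were above 0, and its median was 0.01 on the log2 scale, beside 0.01 for all genes. Quantile normalization gives all libraries the same distribution of values, so a shift shared by most promoters could not show here. With the summit pileup per tag, not normalized in this way, 12 of 56 members were above 0. The median over members was then -0.12, beside -0.13 for all genes. After quantile normalization, the groups did not overlap, with WTAkita above Ctrl, at 3 members, against 2.7% of all genes, and with WTAkita below Ctrl at 1 member, against 1.98%. The largest difference in either direction was 0.40 on the log2 scale, the median standard error 0.13, and 29 of the 56 differences changed sign when 1 library was left out.

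**Figure D4:**
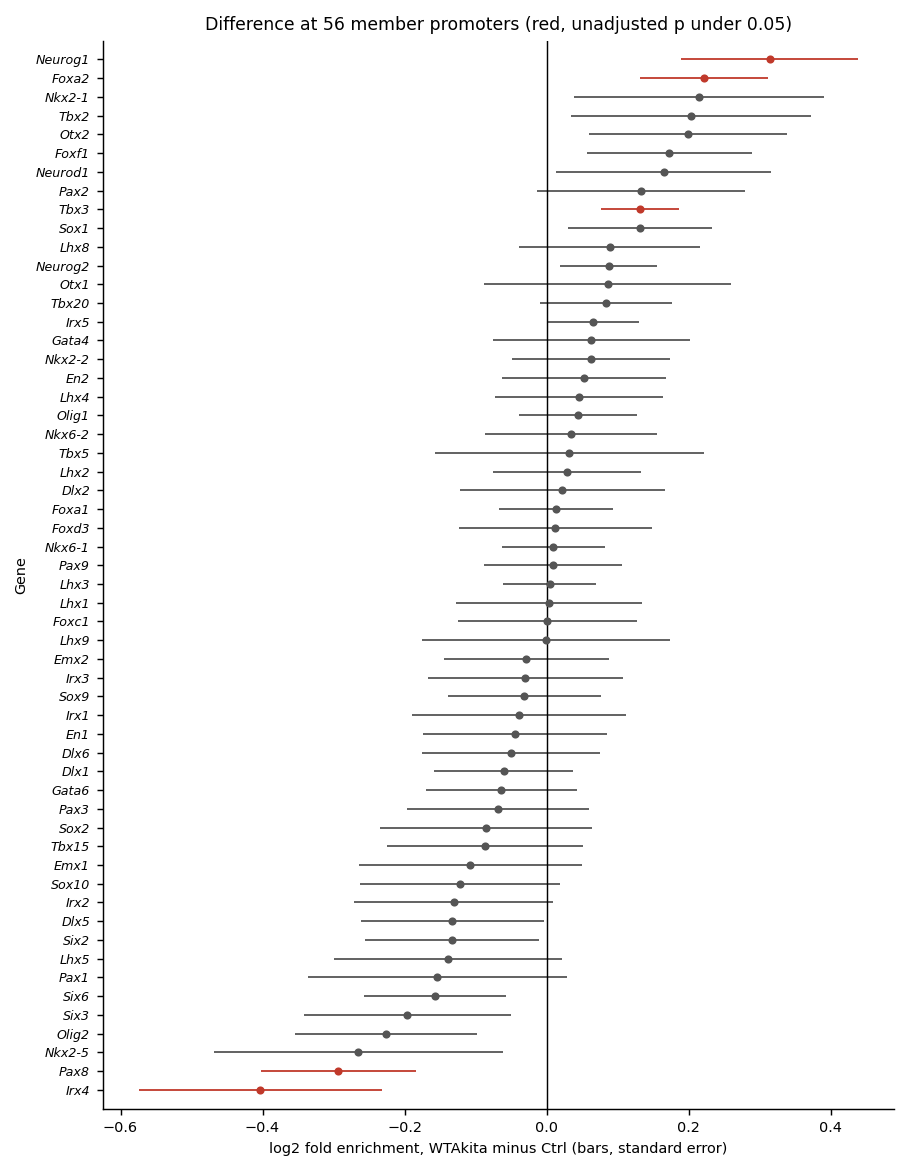
Fitted difference in log2 fold enrichment, WTAkita minus Ctrl, at 56 member promoters (x axis), ordered by size, with bars of 1 standard error and in red the 5 genes with an unadjusted p under 0.05. The values run from -0.40 at Irx4 to 0.31 at Neurog1, and none passed the adjusted threshold.

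The 5 members with an unadjusted p under 0.05 are given with their fold enrichments, and none passed after adjustment (limma with Benjamini-Hochberg adjustment, adjusted p = 0.9986 for each). Neurog1, a proneural bHLH factor of cranial sensory ganglia, had fold enrichments of 4.18, 4.89, 4.46 and 4.997 in WTAkita and 3.63, 3.61 and 3.99 in Ctrl. Its difference was 0.31 ± 0.13 (SE) on the log2 scale, with all WTAkita values above all Ctrl values. The summit of its highest peak moved by 1007 bp among the libraries. With the summit pileup per tag its difference was 0.29 (limma, unadjusted p = 0.239). Foxa2, a forkhead factor of endoderm and floor plate, had 7.85, 7.67, 9.04 and 8.86 in WTAkita and 7.57, 7.78 and 6.78 in Ctrl. The difference was 0.22 ± 0.09 (SE), and after normalization the groups did not overlap. Tbx3 had 16.1, 16.6, 18.02 and 18.9 in WTAkita and 14.9, 17.9 and 16.5 in Ctrl. Its difference of 0.13 ± 0.05 (SE) became -0.03 with the summit pileup per tag, a setting in which the median of all genes was -0.13.

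On the lower side, Irx4, an Iroquois factor of the cardiac ventricle, had 2.79, 3.96, 3.46 and 3.43 in WTAkita and 5.08, 4.88 and 3.73 in Ctrl. The difference was -0.40 ± 0.17 (SE), and WTAkita replicate 2 lay above Ctrl replicate 3. The peak held 15 to 24 tags at its summit in WTAkita and 15 to 27 in Ctrl. Pax8, a factor of thyroid and kidney, had 6.46, 5.73, 6.43 and 6.53 in WTAkita and 8.19, 7.35 and 8.31 in Ctrl. Its difference was -0.29 ± 0.11 (SE), and after normalization WTAkita replicate 1 lay above Ctrl replicate 2. With start sites taken within 2500 bp the difference at Pax8 was -0.0023, and the highest peak was another one in 3 of the 7 libraries, WTAkita replicates 1 and 3 and Ctrl replicate 3. The 3 libraries of lowest median fold enrichment were WTAkita replicates 1 and 2 and Ctrl replicate 1; without them the differences were 0.24 at Neurog1, 0.26 at Foxa2, 0.08 at Tbx3, -0.35 at Irx4 and -0.30 at Pax8.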

How the data were processed

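ATAC-Seq libraries of LSK cells, 4 WTAkita and 3 Ctrl, were analysed from the authors' peak lists, 1 per library. The submitters' processing notes name cutadapt 1.9.1, Trim Galore 0.4.2 and, for alignment to mm10, Bowtie2 2.3.4.1. The authors removed duplicates and called peaks with MACS2 at a p threshold of 0.01, extending tags to 150 bp, with no control library. The notes give MACS2 2.1.4, and the study's methods give another release. Fold enrichment as deposited is a ratio, summit pileup over local background, with no scaling across libraries. Also deposited are p-values and q-values as −log10, which grow with depth, and a score derived from the −log10 p that was left unused. The authors also deposited the summit offset of each peak.

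Start sites came from GENCODE vM21. Peaks sharing a start and an end were joined, keeping the highest summit. The summit pileup, solved from fold enrichment and p, was whole within 0.02 for at least 99.9958% of peaks. The highest fold enrichment of peaks within 1000 bp of a start site was taken per protein-coding gene, on the log2 scale, for genes with such a peak in all 7 libraries, quantile-normalized and then compared in limma 3.58.1 (R 4.3.3, with a mean trend). The fit had no replicate block, as none is named in the methods. Tables were made with Python 3.11.15, numpy 2.4.6, pandas 2.3.3 and pysam 0.24.0, and the fit was tested on simulated data. Pairwise chi-square values of summit pileups averaged 2.28 to 4.82, above the level of sampling noise, so each library was counted once. The depth gave a median summit pileup of 40 to 53 tags per peak.

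Values per library were given for the 6 members of highest and 6 of lowest mean percentile, those with an unadjusted p under 0.05, those whose presence split by group and the 2 farthest in each direction. Members, lists, motifs and the CpG measure were chosen with earlier results of these data known. Alternatives covered the start site window, the summit, the transcripts, the peak threshold, the ranking, the width, the scaling, the filter, the test, the block and each library left out. Other data types of the study were not analysed here.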

Additional observations from a re-analysis of the deposited data

Results flagged for a closer look

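In the 4 WTAkita libraries, 59 values were examined for a library far from the others. At 3 of them a library stood apart, about as many as chance alone would give at 1 in 20. Irx1 was at percentile 35.2 in WTAkita replicate 3, with the other WTAkita libraries at 22.0 to 23.6 and Ctrl at 23.7 to 28.5. Nkx6-1 was at 62.8 in WTAkita replicate 3, with the others at 68.2 to 69.0 and Ctrl at 64.1 to 70.4. Irx3 was at 12.5 in WTAkita replicate 1, with the others at 18.6 to 19.5 and Ctrl at 16.5 to 18.5. At Irx1 the summit of the highest peak moved by 1715 bp among the libraries.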

How the results depend on the processing

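The number of members with a peak in all libraries was within 1.5 times of 56 under all 13 alternatives run. The median percentile of members was 24.0 with start sites within 500 bp, 43.6 within 2500 bp, 29.6 by the summit, 29.5 with protein-coding transcripts only, 28.5 with peaks of −log10 p of at least 5 and 30.01 by summit pileup. Ranked among the highest promoter peaks of all genes it was 7.59. Without 1 library it ran between 32.0 and 32.8. The median width, 642.1 bp for members and 960.6 bp for all genes, was 1227 bp and 1263 bp with all promoter peaks summed, so the contrast nearly closed. Over all genes, 2 passed the adjusted threshold. The count was 0 in limma with start sites within 500 or 2500 bp or by the summit, where 4.03%, 3.75% and 3.99% of genes had an unadjusted p under 0.05. It was 69 with the summit pileup per tag, 4 when the 3 libraries lowest in median fold enrichment were left out, an alternative chosen after seeing the data, and 2 to 14 without 1 library, where 14 came without WTAkita replicate 4 and 4 without Ctrl replicate 2. No member passed in any of these limma fits. The exact permutation test also gave 0, but 35 splits could hardly have given another count after adjustment, so it bears on nothing. The summit pileup per tag moved the median of all genes to -0.13 and that of members to -0.12, and Tbx3 to -0.0255. Deviations of same-numbered libraries correlated at 0.267, 0.019 and 0.102, so the numbers were not taken to pair them. With the replicate block, which leaves out WTAkita replicate 4, 12 genes passed and no member did. The summits of the 6 lowest members held 13 to 59 tags, where the median over all peaks of a library was 40 to 53, and the part of depth in their ranks was not tested.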
